A study of Arabidopsis thaliana with 26 samples.

Results

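NdhL, NdhN and NdhS are nuclear-encoded subunits of the chloroplast NADH dehydrogenase-like (NDH) complex, and their transcripts were followed in leaves of Arabidopsis thaliana. They were chosen as every probe set annotated to 1 of these names, which gave 3 probe sets of the 22746 on the Affymetrix ATH1 array that are not controls. NdhL is locus AT1G70760, NdhN is AT5G58260 and NdhS is AT4G23890, each with 1 probe set. All plants were of the accession Col-0, a laboratory wild type, and were kept at ambient CO2 and ambient light with a light period of 10 h per day. The series belongs to a study of how leaves signal light and CO2 to each other, and this treatment keeps both at ambient. The 26 arrays were made from developing leaves of insertions 19 to 21, with 4 per time at 2, 4, 12, 24, 48 and 96 h, and from mature leaves, with 2 at 24 h. The clock time from which the hours ran is not given in the labels, so a time here is a label and not an hour of the day. If it was the same for all samples, 24, 48 and 96 h fell at the same hour of the day. The times of 2, 4 and 12 h then fell at other hours, and 12 h and 24 h could not both lie in the light period of 10 h. In comparisons with 2, 4 or 12 h, time of day and time elapsed therefore cannot be told apart. The labels number the replicates without saying that they came from separate plants, so every p-value rests on a spread between samples that may be technical.

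The NDH complex sits in the thylakoid membrane, takes electrons from ferredoxin and passes them to plastoquinone. It thereby carries one of the routes of cyclic electron flow around photosystem I, and it also takes part in chlororespiration, the movement of electrons into and out of the plastoquinone pool without net photosynthesis. Its core is built from subunits encoded in the plastid genome, the ndh genes, together with subunits encoded in the nucleus and imported. NdhN belongs to the stromal arm called subcomplex A, NdhL is a membrane-spanning subunit that is needed for that arm to be stable, and NdhS lies at the site where ferredoxin binds.

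All 3 transcripts lay above the filter on low values. Their intensities ran from 156.5 to 854.3 over the 26 arrays, against a filter at an intensity of 27.45. The level of one probe set cannot be set against that of another, because probes differ in how strongly they bind, so values are compared within each transcript. Leaves were measured whole, so fewer cells of a type and less RNA per cell cannot be told apart. Median intensities per array were 40.7 to 47.0. Within a group, the mean r between arrays over probe sets was 0.967 to 0.981, and the closest pair had r = 0.988. The array of developing leaves at 24 h, replicate 1, stood apart most from its group, and results that rest on it are given with and without it. The number of arrays limits the precision.

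NdhL, the membrane-spanning subunit, had intensities of 279, 229, 208 and 172 in replicates 1 to 4 at 2 h, and of 225, 226, 214 and 226 at 4 h. At 12 h the intensities were 384, 447, 360.0 and 406, and at 24 h they were 407, 243, 246 and 258. At 48 h the intensities were 377, 381, 336 and 309, at 96 h they were 399, 397, 414 and 393, and in mature leaves they were 729.9 and 854. The 12 h, 48 h and 96 h arrays all lay above every 2 h and 4 h array, and both mature arrays lay above all 24 developing arrays. At 24 h, replicates 2, 3 and 4 lay close together near the upper end of the 2 h range, while replicate 1 lay within the 12 h range. The mean log2 level was 7.80 ± 0.28 (SD, n = 4) at 2 h, 8.65 ± 0.13 (SD, n = 4) at 12 h and 9.63 ± 0.16 (SD, n = 2) in mature leaves. The spread between replicates was narrow at 4 h and 96 h, with SDs of 0.04 and 0.03, and widest at 24 h, with an SD of 0.35.

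NdhN, a subunit of the stromal arm, had intensities of 299.9, 301, 248 and 216 at 2 h, and of 222, 264, 233 and 254 at 4 h. At 12 h the intensities were 374, 502, 383 and 363, and at 24 h they were 356, 299, 308 and 394. At 48 h the intensities were 375, 451, 397 and 377, at 96 h they were 573, 446, 430.0 and 453, and in mature leaves they were 716 and 667. The 12 h, 48 h and 96 h arrays again lay above every 2 h array, and both mature arrays lay above all developing arrays. The 24 h arrays overlapped the 2 h arrays by a narrow margin, since replicate 2 at 24 h lay just below replicates 1 and 2 at 2 h. The mean log2 level was 8.07 ± 0.23 (SD, n = 4) at 2 h, 8.90 ± 0.19 (SD, n = 4) at 96 h and 9.44 ± 0.07 (SD, n = 2) in mature leaves.

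NdhS, the subunit at the ferredoxin site, had intensities of 239, 199.7, 179 and 180.0 at 2 h, and of 175, 184, 171 and 156 at 4 h. At 12 h the intensities were 296, 266, 209 and 232, and at 24 h they were 347, 237, 204 and 246. At 48 h the intensities were 318, 312, 316 and 303, at 96 h they were 499, 315, 277 and 270.3, and in mature leaves they were 645 and 686. For NdhS it was the 48 h and 96 h arrays that lay above every 2 h array, while the 12 h and 24 h arrays overlapped the 2 h range. Replicate 1 at 96 h lay far above the other arrays of that time, and both mature arrays lay above it. The mean log2 level was 7.66 ± 0.19 (SD, n = 4) at 2 h, 8.31 ± 0.03 (SD, n = 4) at 48 h and 9.39 ± 0.06 (SD, n = 2) in mature leaves. The SD at 96 h was 0.41, the widest of any group of the 3 transcripts.

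**Figure D1:**
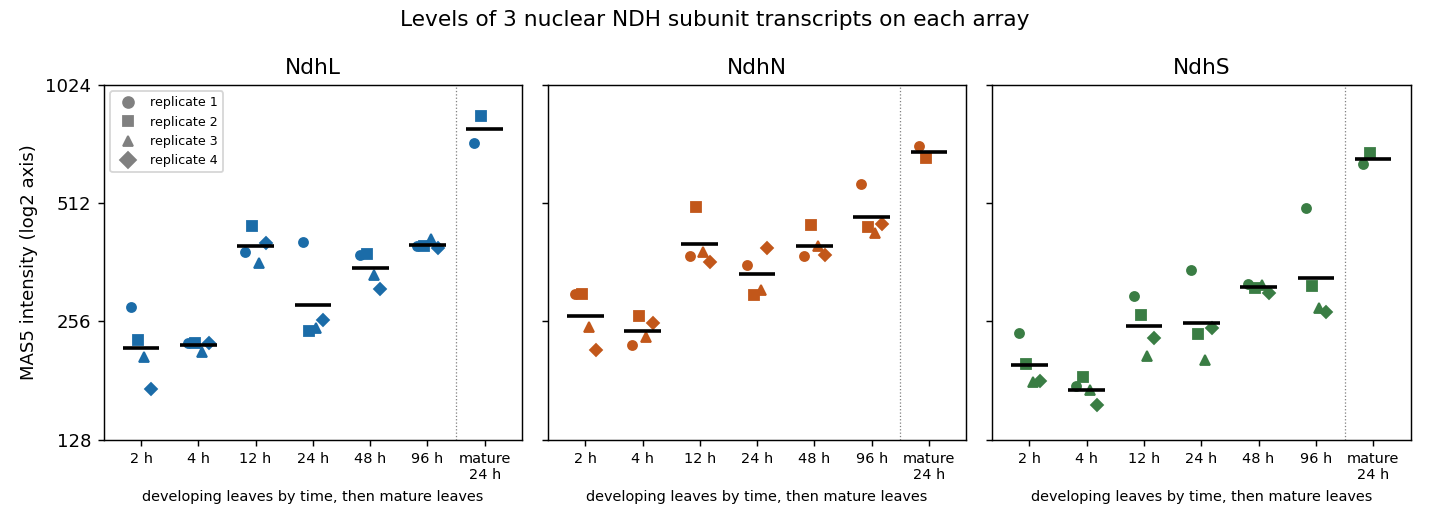
MAS5 intensity of NdhL, NdhN and NdhS on each of the 26 arrays, on a log2 axis, by time in developing leaves and then in mature leaves at 24 h. Points are arrays, shaped by replicate number, and bars are means of the log2 values. In all 3 panels both mature arrays lie above every developing array, and the 4 arrays at 24 h lie lower on average than those at 48 h and 96 h.

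All 3 transcripts differed among the 6 times in developing leaves. In limma's moderated F-test the adjusted p was 7.71e-07 for NdhL, 3.05e-07 for NdhN and 4e-05 for NdhS, with F values of 17.7, 19.7 and 10.9. Of all 13648 probe sets tested, 62.4% passed the same test, so that passing it does not set these transcripts apart. Changes below are differences of mean log2 level ± the standard error (SE) of the fit, where level is log2 of the intensity plus a pseudocount, and p-values are from limma, adjusted by the Benjamini-Hochberg method over all 13648 probe sets. The comparisons with 2 h all share the same 2 h arrays, so a change seen in several of them is not a repeated finding.

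Between 2 h and 4 h none of the 3 passed the test in limma, and 0 had an unadjusted p under 0.05, where 2.34% of all probe sets passed. The changes were 0.03 ± 0.13 for NdhL, -0.12 ± 0.12 for NdhN and -0.20 ± 0.15 for NdhS. Between 2 h and 12 h, 2 of the 3 rose, where 20.6% of all probe sets rose and 18.6% fell. NdhL rose by 0.85 ± 0.13, or 1.80-fold (adjusted p = 8.55e-06), and NdhN by 0.60 ± 0.12, or 1.52-fold (adjusted p = 0.000185). The NdhS change of 0.32 ± 0.15 did not pass (adjusted p = 0.102), with a 95% confidence interval of 0.00 to 0.64. It did pass under some other settings of the fit, where the lowest adjusted p in limma was 0.0282, as given at the end. Only 3.34% of probe sets had a higher change than NdhL in that comparison, 7.72% a higher one than NdhN and 20.7% a higher one than NdhS.

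At 24 h all 3 stood about equally far above their 2 h level, by 0.36 ± 0.13 for NdhL, 0.35 ± 0.12 for NdhN and 0.35 ± 0.15 for NdhS. NdhN alone passed the test in limma (adjusted p = 0.0346), while NdhL had an adjusted p of 0.0527 and NdhS of 0.108, and 10.1% of all probe sets rose. The values of NdhL and NdhS lean on replicate 1 at 24 h, and that of NdhN less so. Without that array the change was 0.18 for NdhL, 0.33 for NdhN and 0.20 for NdhS, and none passed (adjusted p = 0.0827 for NdhN). Which of the 3 passed also changed under other settings of the fit, among them a replicate block, as given at the end. Compared directly with 12 h, NdhL fell by 0.49 at 24 h, with an SE of 0.13 and an adjusted p of 0.00399, in a comparison where 20.7% of all probe sets fell. The 24 h and 12 h arrays of NdhL overlapped through replicate 1 alone, and without it the change was -0.67. NdhN had a change of -0.25 ± 0.12 from 12 h to 24 h (adjusted p = 0.0961), and NdhS one of 0.03 ± 0.15 (adjusted p = 0.901), which was -0.12 without that array.

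At 48 h all 3 had risen against 2 h, where 11.2% of all probe sets rose. The rises were 0.67 ± 0.13 for NdhL, 0.59 ± 0.12 for NdhN and 0.64 ± 0.15 for NdhS, or 1.59-fold, 1.50-fold and 1.56-fold (adjusted p = 0.000429, 5e-04 and 0.00267). At 96 h all 3 had risen again against 2 h, in a comparison where 19.1% of all probe sets rose. The rises were 0.86 ± 0.13 for NdhL, 0.83 ± 0.12 for NdhN and 0.72 ± 0.15 for NdhS, or 1.82-fold, 1.78-fold and 1.65-fold (adjusted p = 7.4e-06, 2.67e-06 and 0.000435). The median change of all probe sets was -0.02 in that comparison, and between 4.41% and 6.36% of probe sets had a higher change than these 3. At both times the 4 arrays of each transcript lay above its 4 arrays at 2 h.

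The later times were also compared with each other. None of the 3 passed between 24 h and 48 h in limma, with changes of 0.31 ± 0.13, 0.24 ± 0.12 and 0.29 ± 0.15 for NdhL, NdhN and NdhS, although NdhL had an unadjusted p of 0.0273, and 0.315% of all probe sets passed. Between 24 h and 96 h NdhL rose by 0.50 ± 0.13 (adjusted p = 0.00922) and NdhN by 0.48 ± 0.12 (adjusted p = 0.00585), where 8.4% of all probe sets rose. For NdhN all 4 arrays at 96 h lay above all 4 at 24 h, and for NdhL they overlapped through replicate 1 at 24 h. The NdhS change of 0.37 ± 0.15 did not pass (adjusted p = 0.0999), but passed without replicate 1 at 24 h, with a change of 0.52 (adjusted p = 0.0174). Without replicate 1 at 96 h it was 0.17 (adjusted p = 0.455). Between 48 h and 96 h none of the 3 passed in limma, 0 at an unadjusted p under 0.05, and 3.44% of all probe sets did. The changes there were 0.19 ± 0.13, 0.24 ± 0.12 and 0.08 ± 0.15.

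Mature leaves had the highest level of all 3 transcripts. Against developing leaves at 24 h, NdhL rose by 1.47 ± 0.16, NdhN by 1.02 ± 0.14 and NdhS by 1.37 ± 0.19, or 2.78-fold, 2.04-fold and 2.59-fold. The adjusted p-values in limma were 1.06e-08, 7.68e-07 and 4.7e-07, with 2 mature arrays against 4, and 24.1% of all probe sets rose while 37.6% fell. The 95% confidence intervals were 1.14 to 1.80 for NdhL, 0.73 to 1.32 for NdhN and 0.99 to 1.76 for NdhS. The median change of all probe sets was -0.15, or -0.11 after quantile normalization, so the rises relative to the typical probe set were slightly larger than these values. From the top of the ordered changes NdhL was number 701, NdhS 805 and NdhN 1286 of 13648. Without replicate 1 of the developing leaves at 24 h the rises were 1.65 for NdhL and 1.52 for NdhS. With 2 mature arrays, the spread behind these p-values came mostly from the developing groups.

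**Figure D2:**
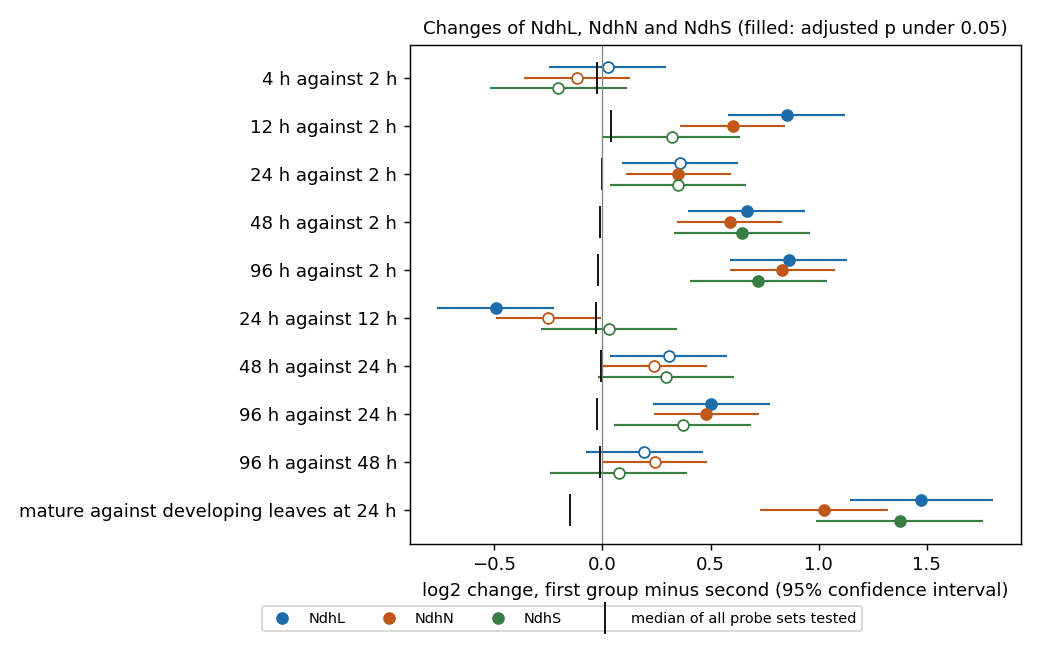
Change of NdhL, NdhN and NdhS in log2 units in each of 10 comparisons, first group minus second, with 95% confidence intervals from limma. Filled points passed an adjusted p of 0.05, and black ticks mark the median change of all 13648 probe sets. All 3 points are filled at 48 h and 96 h against 2 h and in mature leaves, while at 12 h against 2 h NdhS alone is open.

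In the order of mean levels, mature leaves came last and 96 h next to last for all 3 transcripts. NdhL ran from 2 h through 4 h, 24 h, 48 h and 12 h to 96 h. NdhN ran from 4 h through 2 h, 24 h, 48 h and 12 h to 96 h, and NdhS from 4 h through 2 h, 12 h, 24 h and 48 h to 96 h. The place of 12 h thus differed, just below 96 h for NdhL and NdhN and below 24 h for NdhS. Neighbours in these orders were set against each other in 18 exact permutation tests (2-sided, over arrays). Such a test can give no p below 0.0286 for 4 and 4 arrays, or below 0.0667 for 2 and 4. The step from 4 h to 24 h of NdhL, by 0.33, reached 0.0286, and the step from 96 h to mature leaves reached 0.0667 for each of the 3, by 0.97 for NdhL, 0.54 for NdhN and 1.00 for NdhS. In these steps the groups did not overlap. All other neighbours overlapped, and after adjustment over the 18 tests the lowest p of these exact tests was 0.220, so the order of the developing times is not fixed by these tests.

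Whether the 3 changed unequally was tested on the difference between 2 of them within each array, which removes what an array shares. The difference itself has no meaning as a level, and only its change between groups is read. The NdhL minus NdhS difference averaged 0.14 ± 0.14 (SD, n = 4) for the 2 h arrays, 0.37 ± 0.10 for 4 h, 0.67 ± 0.20 for 12 h and 0.15 ± 0.12 for 24 h. The mean difference thus stood above that at 2 h by 0.23 at 4 h and by 0.53 at 12 h, and it changed by -0.52 between 12 h and 24 h. In each of these comparisons the arrays of the groups did not overlap, and the 2-sided exact permutation test gave p = 0.0286, the smallest it can give. Of the 30 such tests, over 3 pairs and 10 comparisons, these were the 3 with an unadjusted p under 0.05, and 0 passed after adjustment over the 30 (adjusted exact p = 0.286). A p of 0.0286 can pass this adjustment only if many of the 30 tests reach it, so the adjusted values cannot decide the question. NdhL against NdhN showed a change of 0.25 at 12 h against 2 h (exact p = 0.0571, adjusted p = 0.429), and NdhN against NdhS one of 0.28 (exact p = 0.114, adjusted p = 0.686). At 48 h and 96 h against 2 h the changes of the 3 differences lay between -0.05 and 0.14. In mature leaves against developing leaves at 24 h they were 0.45, 0.10 and -0.35 for NdhL minus NdhN, NdhL minus NdhS and NdhN minus NdhS, with exact p-values of 0.267, 0.400 and 0.200.

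**Figure D3:**
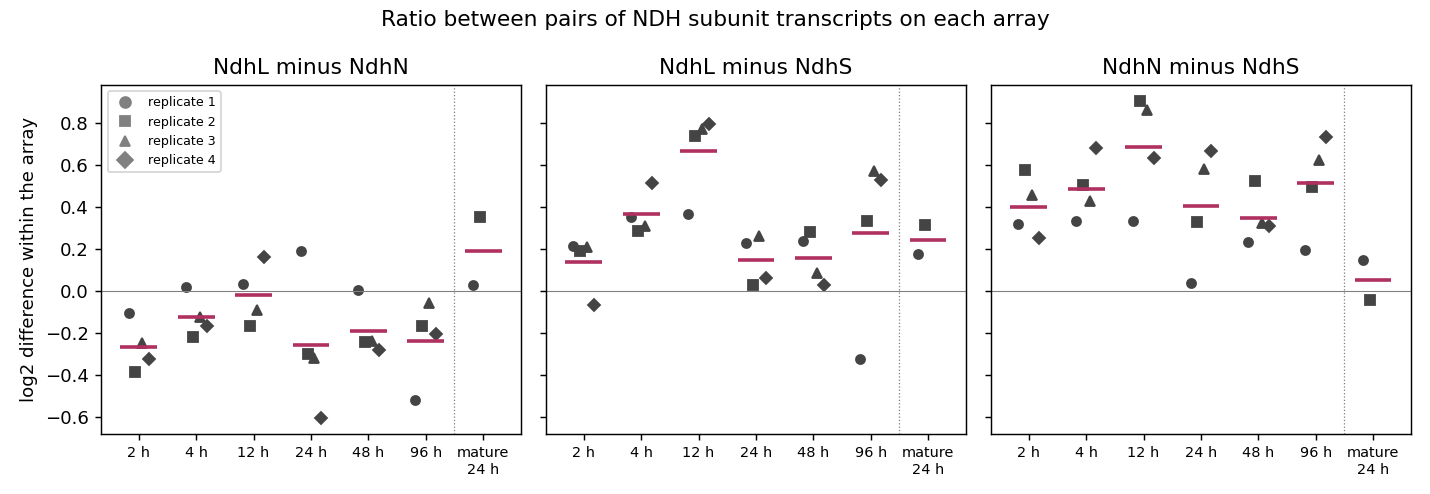
Difference in log2 level between 2 of the 3 transcripts within each array, by time in developing leaves and in mature leaves. Points are arrays, shaped by replicate number, and bars are means. In the middle panel the 12 h arrays lie between 0.37 and 0.80, above every array at 2 h and at 24 h.

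Across the 26 arrays NdhL and NdhN correlated with r = 0.923, NdhL and NdhS with 0.887 and NdhN and NdhS with 0.901. Over the 24 developing arrays r was 0.887, 0.779 and 0.847, and for deviations of the arrays from their group means it was 0.494, 0.565 and 0.544. These are descriptions, and the points share their arrays and groups. Of the 7444 other probe sets that passed the filter and named 1 gene, NdhN was the 12th most like NdhL over the 26 arrays and NdhS the 63rd. Over the 24 developing arrays NdhN was the 14th and NdhS the 145th. The most like NdhL over the 26 arrays were AT1G49750 (r = 0.960), AT3G19800 (0.952), AT2G14910 (0.944), AT1G02475 (0.943) and AT1G19380 (0.934). The most like NdhN were AT2G29340 (r = 0.951), AT1G35710 (0.947), AT3G52230 (0.944), AT5G38980 (0.944) and AT3G07720 (0.942). The most like NdhS were ATSPS4F (r = 0.945), a sucrose phosphate synthase, AT1G04350 (0.940), AT4G30993 (0.938), GT72B1 (0.937), a glycosyltransferase, and AT4G28025 (0.936). Over the 24 developing arrays alone, the first 3 for NdhL and the first for NdhN were the same genes, whereas for NdhS only AT4G28025 remained among the first 5.

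The plastid-encoded subunits form the membrane arm and part of the stromal arm of the complex. Of 11 ndh genes, 10 had a probe set that named them alone and 9 passed the filter, ndhF being the exception. Of these 9, 4 differed among the 6 times in limma's F-test, which 62.4% of all probe sets passed. At 12 h against 2 h 0 of the 9 passed, or 1 after quantile normalization, where 39.2% of all probe sets passed and where the median change of the 9 was -0.01, against 0.04 for all probe sets. At 24 h 1 of the 9 had risen against 2 h (10.1% of all probe sets) and at 48 h 2 had (11.2%), with a median change of 0.41 at 48 h. The count at 24 h was 0 without replicate 1 at 24 h and 0 after quantile normalization. It ran from 0 to 3 when single arrays were left out. At 96 h 3 of the 9 had risen (19.1%), with a median change of 0.34. Of the genes named here, ndhG, for a membrane subunit, had risen by 0.69 ± 0.18 at 96 h (adjusted p = 0.00352). ndhK, for a subunit of the stromal arm that was chosen after its values were seen, had risen by 0.78 ± 0.21 (adjusted p = 0.00325), with intensities of 299.5, 354, 237 and 206 at 2 h and of 409.6, 590.5, 447 and 426 at 96 h. The ndhK arrays at 96 h lay above all those at 2 h. At 12 h NdhL and NdhN had thus passed the test and 0 of the 9 plastid-encoded genes had, but a difference between the sets was not tested.

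In mature leaves 3 of the 9 plastid-encoded genes had risen against developing leaves at 24 h, where 24.1% of all probe sets rose, and 0 had fallen, with a median change of 0.45. The filter had left out ndhF, which was lower in mature leaves, with intensities of 11.3 to 15.4 there. In developing leaves at 24 h it had 15.6 to 37.9, and its change was not tested. ndhA, for a membrane subunit, had risen by 0.96 ± 0.20 (adjusted p = 0.000148), ndhC, for another membrane subunit, by 0.63 ± 0.17 (adjusted p = 0.00287), and ndhI, for an iron-sulfur subunit and likewise chosen after its values were seen, by 0.79 ± 0.17 (adjusted p = 0.000183). ndhD, ndhE and ndhG did not pass, with changes of 0.23 ± 0.19, 0.04 ± 0.32 and 0.02 ± 0.23. The ndhA intensities were 867, 703, 1089 and 628 in developing leaves at 24 h and 1161 and 2109.9 in mature leaves. Both mature arrays lay above the developing ones, but the mature arrays differed widely from each other. Without mature replicate 2, 1 of the 9 passed, and without each other array in turn between 3 and 5 did, whereas the 3 nuclear-encoded transcripts passed in each case. The number of plastid-encoded genes that had risen at 48 h against 2 h varied between 0 and 2 when single arrays were left out and between 0 and 6 over the other settings, with 6 in a fit on the groups compared alone.

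**Figure D4:**
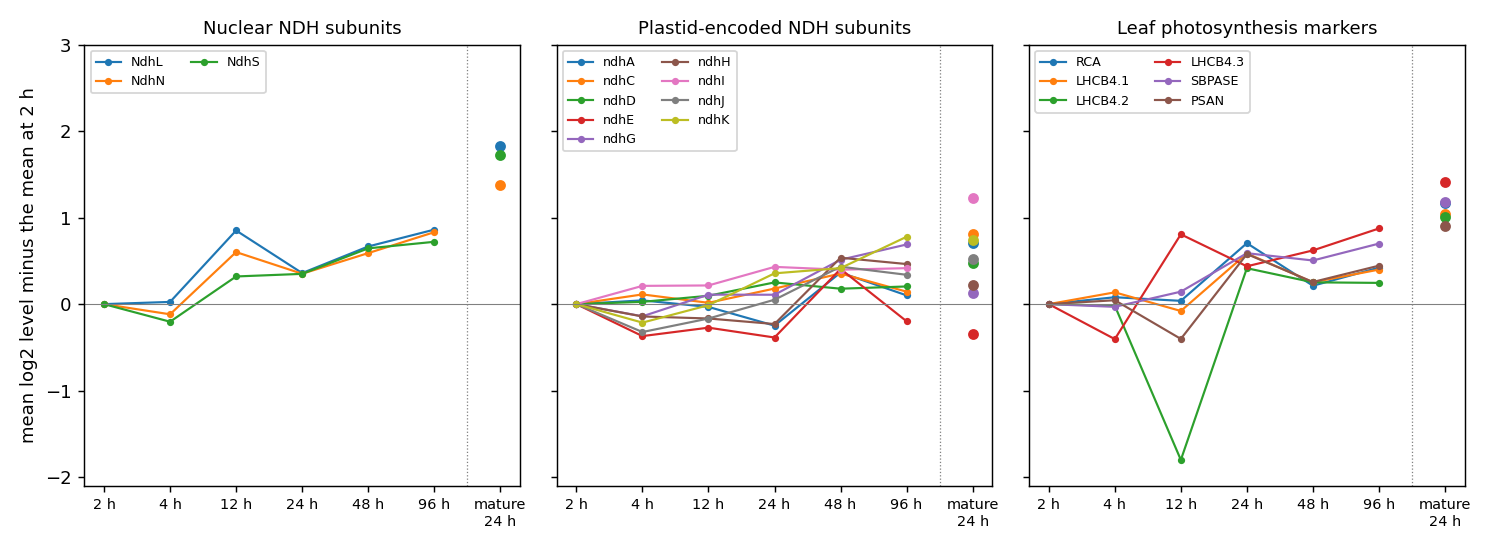
Mean log2 level minus the mean at 2 h, by time in developing leaves and in mature leaves, for the 3 nuclear NDH transcripts, the 9 plastid-encoded ndh transcripts that passed the filter and the 6 measured leaf photosynthesis markers. Each line is a gene and the large points at the right are mature leaves. At 12 h NdhL and NdhN lie 0.85 and 0.60 above their 2 h level, and the plastid-encoded genes lie between -0.27 and 0.22. The leaf markers lie between -1.80 for LHCB4.2 and 0.81 for LHCB4.3.

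Of the factors that assemble the complex or process ndh transcripts, 3 of the 9 listed had a probe set naming them. CRR21, CRR22 and CRR28 are pentatricopeptide repeat proteins that edit plastid transcripts. In limma's F-test among the times 0 of the 3 passed, where 62.4% of all probe sets did (CRR22 had an unadjusted p of 0.0341). None passed any comparison with 2 h in limma (adjusted p = 0.0763 for CRR22 at 12 h, unadjusted 0.033). Of all probe sets, 2.34% passed at 4 h and 39.2% at 12 h against 2 h. At 24 h, 48 h and 96 h, 10.1%, 11.2% and 19.1% of all probe sets rose. In mature leaves CRR21 fell by 0.48, with an SE of 0.15 and an adjusted p of 0.0086, a call that was lost without mature replicate 2 (adjusted p = 0.0642). The changes of CRR22 and CRR28 there were -0.32 ± 0.19 and -0.41 ± 0.31. CRR41 and CRR42, which are known as stromal assembly factors for the arm that holds NdhN, were added to the lists after the array's annotation had been read.

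CRR42 rose at 12 h against 2 h by 0.61 ± 0.12 (adjusted p = 0.000119), and CRR41 fell by 0.63, with an SE of 0.16 and an adjusted p of 0.00201. CRR42 had intensities of 58.9, 70.7, 54.8 and 61.5 at 2 h, of 96.1, 119.9, 89.4 and 82.3 at 12 h, of 68.9, 58.4, 53.1 and 59.2 at 24 h, and of 125.7 and 125.5 in mature leaves. The 12 h arrays lay above all those at 2 h and 24 h, and both mature arrays lay above these again. From 12 h to 24 h CRR42 fell by 0.65, with an SE of 0.12 and an adjusted p of 6.42e-05, and in mature leaves it had risen by 1.02 ± 0.14 (adjusted p = 6.11e-07). CRR41 stood lower at 96 h than at 2 h by a log2 change of -0.58 ± 0.16 (adjusted p = 0.00354), and its change in mature leaves was -0.02 ± 0.19 (adjusted p = 0.935). The 2 assembly factors thus changed in opposite directions at 12 h and at 96 h, where CRR42 had risen by 0.40 ± 0.12 (adjusted p = 0.00671).

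The other route of cyclic electron flow, which depends on PGR5, had 1 of 3 genes with a probe set that named it, PGRL1B, for a membrane partner of PGR5. PGRL1B had a change of -0.06 ± 0.13 at 12 h against 2 h (adjusted p = 0.751) and had risen by 0.36 ± 0.13 at 96 h (adjusted p = 0.0303) and by 0.64 ± 0.16 in mature leaves (adjusted p = 0.00117). The mature rise did not pass without mature replicate 2, nor the 96 h rise without some single arrays, or with the actin ratio described below as a covariate, where the change was 0.07. Of the nuclear genes for photosystem I, to which the NDH complex binds, 2 of 12 had such a probe set. PSAN, for a lumenal subunit, fell at 12 h against 2 h by 0.40, with an SE of 0.11 and an adjusted p of 0.00527, and rose from 12 h to 24 h by 0.98 ± 0.11 (adjusted p = 7.24e-08). PSAE-1, for a stromal subunit, had a change of -0.31 ± 0.16 at 12 h (adjusted p = 0.121) and rose from 12 h to 24 h by 0.77 ± 0.16 (adjusted p = 0.000296). In the same interval NdhL had fallen. No gene of the listed NDH subcomplex B and lumenal subunits (0 of 10), linkers to photosystem I (0 of 2), soluble electron carriers (0 of 6) or plastid sigma factors (0 of 6) was named alone by a probe set in the annotation used.

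Markers of leaf cells were measured beside these results. Of 8 markers of photosynthetic leaf cells 6 were measured, among them RCA, for the activase of Rubisco, and their summed intensity was 9669.8 to 11590.0 at 2 h, 8536 to 9736 at 12 h, 13165 to 21985 at 24 h in developing leaves and 19254 to 28014 in mature leaves. The labelled leaf tissue thus carried its markers, and none of the 6 was at 0 on any array. At 12 h against 2 h, 1 of the 6 rose and 2 fell, where 20.6% of all probe sets rose and 18.6% fell. LHCB4.3, for a light-harvesting protein, rose by 0.81 ± 0.14 (adjusted p = 4.12e-05 in limma). LHCB4.2 and PSAN fell, with changes of -1.80 and -0.40. Over the 24 developing arrays LHCB4.3 correlated with NdhL, NdhN and NdhS with r = 0.83, 0.91 and 0.75. For LHCB4.2 r was -0.271, -0.145 and 0.157, all given as a description. At 24 h, 6 of 6 had risen against 2 h, with a median change of 0.58, where 10.1% of all probe sets rose. The count was 4 of 6 without replicate 1 at 24 h and likewise 4 of 6 after quantile normalization. Under that normalization LHCB4.1, for a light-harvesting protein, had a change of -0.033. At 48 h, 2 of 6 had risen against 2 h (11.2% of all probe sets), with a median change of 0.25. At 96 h 5 of 6 had (19.1%), with a median change of 0.43. At 96 h 4 of 6 had risen after quantile normalization. Of all probe sets, 24.1% rose and 37.6% fell in mature leaves against developing leaves at 24 h. In mature leaves 6 of 6 had risen, with a median change of 0.53, or 1 of 6 without mature replicate 2 and 3 of 6 after quantile normalization. NdhL, NdhN and NdhS passed in mature leaves under each of these settings, with changes of 1.39, 0.94 and 1.29 after quantile normalization.

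Other cell types had fewer measured markers. Of 5 markers of dividing cells 2 were measured, AUR1, for a mitotic kinase, and HTB11, for a histone. In mature leaves both had fallen, with changes of -1.88 and -1.50, where 37.6% of all probe sets fell. Over the times HTB11 fell at 12 h, 24 h, 48 h and 96 h against 2 h, with changes of -0.97, -1.04, -0.79 and -1.10, whereas AUR1 rose at 4 h and 12 h, by 0.45 and 0.47, and fell at 96 h, with a change of -0.35. The AUR1 call at 4 h was lost without 5 of the 8 arrays, left out one at a time, and that at 96 h without 4 of the 8. Their summed intensity was 537 to 655 at 2 h, 296 to 339.5 at 96 h and 111 to 112 in mature leaves. Of 7 genes listed for guard cells and stomatal development 4 had a probe set and 3 passed the filter. MUTE, which did not pass it, had intensities of 2.6 to 19.9 in developing leaves at 24 h and of 3.1 to 3.9 in mature leaves. Of the other 3, 2 had fallen in mature leaves. STOMAGEN, for a peptide that promotes stomata, had a change of -1.97, and SPCH, for a factor that starts the stomatal lineage, one of -3.995. The mature SPCH intensities of 1.96 and 2.95 lay below the added 4.35, so the size of its change depends on the pseudocount. The third, FMA, for a guard cell factor, had a change of -0.35 (adjusted p = 0.133). In limma's F-test among the times 0 of the 3 passed, where 62.4% of all probe sets did. SPCH nonetheless passed at 96 h against 2 h in limma, with a change of -0.52 (adjusted p = 0.0454). That call was lost without 6 of the 8 arrays, left out one at a time. SWEET11, for a sucrose exporter of the phloem and the 1 measured of 4 phloem markers, had risen by 2.50 in mature leaves. It had also risen against 2 h at 12 h, 24 h, 48 h and 96 h, by 0.47, 0.49, 0.61 and 1.35, but its call at 12 h was lost without 4 of the 8 arrays compared, left out one at a time, and that at 24 h without 5 of the 8. Over the 24 developing arrays SWEET11 correlated with NdhL, NdhN and NdhS with r = 0.74, 0.87 and 0.80, a description of points that share arrays and groups. WRKY53, the 1 measured of 7 markers of ageing leaves, did not pass the filter, with intensities of 7.3 to 17.7 at 2 h, 41.7 to 50.8 at 96 h and 112 to 179 in mature leaves. Over the 24 developing arrays its r with NdhL, NdhN and NdhS was 0.853, 0.869 and 0.787. For HTB11 r was -0.742, -0.78 and -0.665, and for AUR1 it was -0.245, -0.441 and -0.622, likewise as a description. Of the markers of root (0 of 7), of flower and pollen (0 of 6) and of seed (0 of 5), none was named alone by a probe set. The part of these cell types in the changes of the NDH transcripts was not tested.

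Some of the control ratios that stand for RNA quality moved with the times as well. The first actin control, as the log2 ratio of its 3 prime over its 5 prime probe set, stood at 2.66 ± 0.15 (SD, n = 4) for 2 h, 2.68 ± 0.11 for 4 h, 2.09 ± 0.37 for 12 h, 2.14 ± 0.49 for 24 h, 2.00 ± 0.51 for 48 h and 1.53 ± 0.50 for 96 h, and at 1.60 ± 0.56 (SD, n = 2) in mature leaves. Over the 26 arrays it ran against the NDH transcripts, with r = -0.71 for NdhL, -0.63 for NdhN and -0.56 for NdhS, given as a description of points that share arrays and groups. A second actin control ranged in its group means from 0.63 to 0.93. Its r had the opposite sign, at 0.347 for NdhL, 0.285 for NdhN and 0.377 for NdhS. The ubiquitin ratios were 1.64 at 2 h and 1.17 at 96 h in a first set and 0.89 and 0.53 in a second, and their r with the 3 transcripts lay between -0.53 and -0.35. The GAPDH ratios had r between -0.32 and 0.23. With the first ratio as a covariate in limma, all 3 still passed at 96 h against 2 h, with rises of 0.61 for NdhL, 0.94 for NdhN and 0.83 for NdhS, where the highest adjusted p was 0.00657. NdhL from 24 h to 96 h no longer passed, with a change of 0.36 (adjusted p = 0.0663).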

How the data were processed

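The authors deposited linear intensities, 1 for each probe set on each array, from MAS5, per the submitters' processing notes. Version, background and scaling settings are not given in the sources used here, and no detection calls came with it. The authors' scaling was kept. The 64 control probe sets were left out. To each intensity 4.35 was added (10% of the overall median) before log2 was taken. A filter at the 40th percentile of the mean log2 level kept 13648 probe sets. The platform annotation gives 7445 of them 1 gene, 259 several and 5944 none here, and ndhB shares its probe set with its second copy. 0 columns were unused.

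All 7 groups entered 1 fit in limma 3.58.1 (R 4.3.3) whose variance prior followed intensity. P-values were adjusted by the Benjamini-Hochberg method within each comparison, over all probe sets kept, with a threshold of 0.05. The fit was tested on simulated data. Exact permutation tests over arrays were 2-sided. RNA quality was the log2 ratio of 3 prime to 5 prime control probe sets.

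The members, the gene lists and the tests were chosen with earlier results of these data known. The naming rule took every probe set of the 3 members, the 5 named probe sets most correlated with each over the 26 arrays, and up to 6 members of each list in list order. Genes outside the rule are marked as chosen after their values were seen. Lists covered nuclear NDH subunits, linkers, assembly and transcript processing, the PGR5 route, plastid ndh genes, photosystem I, electron carriers, sigma factors and markers of 8 tissues or cell types. No sequence is shown.

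Alternatives were pseudocounts of 50% and 2% of the median, no filter, a filter at the 60th percentile, quantile normalization, array weights, a replicate block, the actin ratio as a covariate, no variance trend, a fit on the groups compared alone, and each array left out in turn. Likeness over the 24 developing arrays was added after seeing the data.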

Additional observations from a re-analysis of the deposited data

Results flagged for a closer look

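In groups of 4 arrays, the gap of the highest or lowest array to its nearest neighbour was divided by the range of the group and held against Dixon's 95% critical value. Of 186 such groups 9 passed, and chance alone passes about 5% of groups. Of the 18 groups of NdhL, NdhN and NdhS, 2 did.

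NdhL at 24 h passed with 0.881, where replicate 1 had an intensity of 407 and the next array 258. NdhL at 4 h passed with 0.939, where replicate 3 had an intensity of 214 and the other arrays 225 to 226, so that the whole range was narrow.

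Among plastid-encoded genes, ndhH at 4 h passed with 0.851 (replicate 2 lowest, at 87.0 against 98.6), ndhI at 24 h with 0.905 (replicate 2 lowest, at 1839 against 2527) and ndhK at 4 h with 0.891 (replicate 2 highest, at 252 against 225). ndhH, ndhI and ndhK are outside the naming rule and are named because of these values.

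Among leaf markers, RCA at 4 h passed with 0.884 (replicate 3 lowest, at 2484 against 2715), LHCB4.1 at 2 h with 0.865 (replicate 2 lowest, at 2396 against 2846), LHCB4.2 at 2 h with 0.837 (replicate 2 lowest, at 1711 against 2224) and LHCB4.2 at 12 h with 0.883 (replicate 1 highest, at 780.3 against 569).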

How the results depend on the processing

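For NdhL and NdhN at 12 h against 2 h, for all 3 transcripts at 48 h and 96 h against 2 h and in mature leaves, and for the F-test over the times, every alternative run kept the direction and the call. Calls for 24 h against 2 h did not hold. NdhN (0.35, adjusted p = 0.0346 in limma) lost its call with no filter (0.35, 0.0528), with array weights (0.32, 0.0529) and in a fit on the groups compared alone (0.35, 0.0854). NdhL gained a call with a filter at the 60th percentile (0.36, 0.0433) and with quantile normalization (0.39, 0.0452). Array weights gave calls for NdhS at 12 h against 2 h (0.31, 0.0429), NdhN at 24 h against 12 h (-0.30, 0.0497) and NdhS at 96 h against 24 h (0.43, 0.0278), and turned NdhS at 24 h against 12 h to -0.053. With the actin ratio as a covariate NdhL at 96 h against 24 h lost its call (0.36, 0.0663). Quantile normalization turned PSAE-1 (-0.0094) and LHCB4.1 (-0.033) at 24 h against 2 h. The causes were not tested.

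Counts of called probe sets moved at 48 h against 24 h from 43 to 28 with no filter, 171 with array weights, 95 with the actin ratio, 21 with no variance trend and 1 in a fit on the groups compared alone, which also gave 1378 in place of 2354 at 96 h against 24 h. Array weights gave 567 in place of 319 at 4 h against 2 h and 1097 in place of 470 at 96 h against 48 h.

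With single arrays left out in turn, the 24 h against 2 h change ranged from 0.18 to 0.47 for NdhL (call gained in 3 of 8), 0.26 to 0.41 for NdhN (call lost in 4 of 8) and 0.20 to 0.45 for NdhS (gained in 1). At 24 h against 12 h NdhN ranged from -0.32 to -0.14 (gained in 1) and NdhS from -0.12 to 0.13. NdhS at 96 h against 24 h ranged from 0.17 to 0.52, NdhS at 96 h against 48 h from -0.12 to 0.17, NdhL at 4 h against 2 h from -0.088 to 0.14 and the NdhL minus NdhN change at 24 h against 2 h from -0.14 to 0.12. Called probe sets ranged from 0 to 104 at 48 h against 24 h and from 219 to 430 at 96 h against 48 h, and ratio tests with an unadjusted exact p under 0.05 from 1 to 6 of 30.

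Samples share replicate numbers, and whether the numbers pair them was not settled. No comparison had every same-numbered pair of deviations correlated above 0.1 (0.016 to 0.282 at 4 h against 2 h). Yet 16 of 24 developing arrays correlated best with their own number, and the main fit takes no account of the numbers. A replicate block gave calls for NdhS at 12 h against 2 h (0.32, 0.0282), NdhL (0.36, 0.0338) and NdhS (0.35, 0.0297) at 24 h against 2 h, and NdhS at 96 h against 24 h (0.37, 0.0254). Array values carry no count of molecules, and mature leaves had 2 arrays.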
